A study of Mus musculus with 2 samples.

Results

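The genes described here code for the collagens, the laminins, the nidogens and the integrins, together with *Hspg2*, *Agrn*, *Sparc* and *Fn1*. They were chosen by gene symbol and not by their values, though earlier results of these data were known. Of 89 such genes in the RefSeq table, 85 had a probe with a name on the array, out of 20283 named genes. They comprised 24 genes of the basement membrane, 11 fibrillar collagens, 23 other collagens, 26 integrins and *Fn1*. *Col12a1*, *Col6a3*, *Itga10* and *Itgae* had no named probe and were not analysed here.

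The RNA came from whole mouse embryos at embryonic day (E) 7.5, on a C57BL/6 background per the labels, and was hybridised to 1-colour Agilent whole-genome arrays. The reference was 1 Dullard+/- embryo, heterozygous for the loss of *Dullard* (now *Ctdnep1*, a nuclear envelope phosphatase), and the mutant was 1 Dullard-/- embryo. There was no wild-type array, so the reference also carried a mutant copy. The study used a null allele, in which a Neo cassette took the place of all exons, and a LacZ allele that replaced part of the gene. The sources used here do not give which of these the array embryos carried. The loss was in every cell of the embryo and not in a chosen tissue. With 1 embryo per genotype no test between genotypes was possible, and every difference below is a difference between these 2 embryos. In whole embryos, fewer cells of a type and less RNA per cell cannot be told apart.

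A basement membrane is a thin sheet of matrix under an epithelium. Laminins, each a trimer of an alpha, a beta and a gamma chain, polymerise on the cell surface, type IV collagen forms a second network, and nidogens and the heparan sulphate proteoglycans perlecan and agrin tie them together. Cells hold this sheet through integrins, which are pairs of an alpha and a beta chain. In the mouse embryo around gastrulation, basement membranes lie between the visceral endoderm and the epiblast and under the parietal endoderm, whose thick Reichert's membrane is rich in laminin and type IV collagen. The sheet under the epiblast is breached at the primitive streak where cells leave to form mesoderm. Fibrillar collagens, which give strength to connective tissue, are known mostly from later stages.

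Values below are spot signals in arbitrary units, background-subtracted by the scanner software, and log2 fold changes of Dullard-/- over Dullard+/- after each signal was divided by the 75th percentile of its array, 286 in the Dullard+/- and 264 in the Dullard-/- embryo. The error after ± is the SD between replicate spots of like brightness, divided by the square root of the spots behind the value. It holds the spread between spots alone, and neither the spread between embryos nor that between probes of a gene, which was 0.29 on the log2 scale over 3747 genes. A probe counted as measured where the software called it well above background. Signals of different probes are not compared, since probes differ in how well they hybridise. Without scaling, every fold change is shifted by -0.11, so that values between 0 and the size of that shift turn negative.

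*Dullard* itself gave a signal of 672 in the Dullard+/- and 144 in the Dullard-/- embryo (log2 fold change -2.11 ± 0.06), or 4.31-fold lower. Of 43020 spots, 31242 were well above background in the Dullard+/- and 29310 in the Dullard-/- embryo, and none was saturated. Marker genes of other tissues were read beside the matrix genes, and their part in the results was not tested. Of 17 parietal endoderm markers that are not themselves described here, 16 were measured in both embryos, with a median log2 fold change of 0.18. Their summed level, in units of the array's 75th percentile, was 143 in the Dullard+/- and 144 in the Dullard-/- embryo, most of it from the bright probes of *Dab2* and *Ctsl*. Such sums weigh bright probes most and say little about the dimmer markers. All 12 visceral endoderm markers were measured, with sums of 96.7 and 94.2. *Cubn* is on both the parietal and the visceral endoderm list, so these lists do not fully separate the tissues. For 10 trophoblast giant cell markers, of which 6 were measured, the sums were 8.95 and 7.56, and *Tpbpa*, *Ctsq* and *Mmp9* were not well above background in either embryo. For 10 decidua markers, of which 8 were measured, they were 4.67 and 4.84, with *Prl8a2* not well above background in either. The 12 epiblast and primitive streak markers, all measured, had a median of 0.72, with 7 higher and 2 lower by 1.5-fold or more, where 3.92% of all genes were higher and 3.37% lower. Their sums were 575 and 630, most of it from the bright probe of *Nanog*, whose fold was 1.06. For 12 markers of later mesoderm and endothelium, 10 of them measured, the sums were 5.39 and 5.43, and *Hba-x* was not well above background in either. The median of these markers was 0.02, but 2 were higher and 2 lower by 1.5-fold or more. *Hbb-bh1* was 4.23-fold and *Gata1* 2.46-fold lower in the Dullard-/- embryo, while the dim *Cdh5* was 2.15-fold and *Kdr* 1.56-fold higher. The *Kdr* fold is a mean over 2 probes, with mean signals of 774 and 945. Those signals rose by less than 1.56-fold after scaling, so the probes differed in fold. The near-equal sums thus do not mean that these markers were alike in both embryos.

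Of the 85 genes, 57 were measured in both embryos, 6 in the Dullard+/- embryo alone and 0 in the Dullard-/- embryo alone, and 22 in neither. These shares were 67.1%, 7.06%, 0% and 25.9%, against 72.8%, 4.45%, 0.749% and 21.9% of all named genes. By group, 21 basement membrane genes, 5 fibrillar collagens, 12 other collagens, 18 integrins and *Fn1* were measured in both. Neither embryo had *Col4a3*, *Lamc3*, the fibrillar *Col5a2*, *Col5a3*, *Col11a1* and *Col24a1*, 10 of the other collagens or 6 of the integrins well above background.

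Most matrix and integrin genes had nearly the same level in both embryos. The median log2 fold change over the 57 genes was 0.01, with quartiles of -0.18 and 0.13, and over all 14770 genes measured in both embryos it was 0.01, with quartiles of -0.14 and 0.16. Of the 57, 29 were above 0 and 28 below. At 1.5-fold or more, 2 were higher in the Dullard-/- embryo, *Itga8* and *Col4a6*, where 3.92% of all genes were. At 1.5-fold or more 4 were lower, among them *Lama4*, *Col14a1* and *Col27a1*, where 3.37% of all genes were. At 2-fold or more, 1 was higher (*Itga8*), against 0.894% of all genes, and 0 were lower, against 0.765%. Together 10.5% of the 57 were past 1.5-fold either way, against 7.29% of all genes, and the other 51 lay within it.

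The genes past 1.5-fold were dim, apart from *Col27a1*. Of 27 matrix and integrin genes with a geometric mean signal under 50, 5 were past 1.5-fold, where 16.9% of all genes of that brightness were. Of 16 with a signal between 50 and 200, 1 was (*Col27a1*), against 6.4%. Of 14 with a signal of 200 or more, 0 were, against 1.4%, and those 14 lay between -0.20 and 0.22. The median error was 0.20, 0.08 and 0.05 in the same order.

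**Figure D1:**
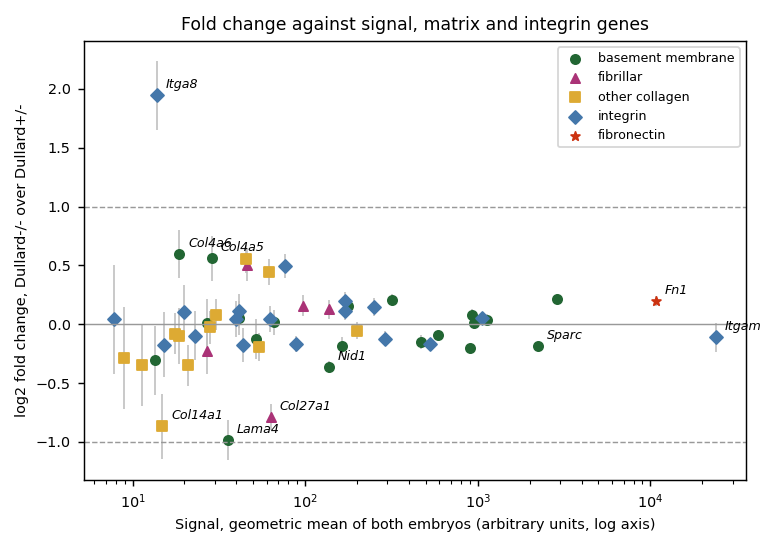
Log2 fold change, Dullard-/- over Dullard+/-, of the genes reported here that were measured in both embryos against the geometric mean of both signals (arbitrary units, log axis). Colours and shapes mark the gene group, bars the error between replicate spots and dashed lines a 2-fold change. Genes with a signal of 200 or more lie between -0.20 and 0.22, and *Itga8* alone is past 2-fold.

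Of the laminin chains that build the trimer of early embryonic basement membranes, the beta and gamma chains were alike in both embryos and the alpha chain was slightly lower in the Dullard-/- embryo. *Lamb1* gave 1165 in the Dullard+/- and 1107 in the Dullard-/- embryo (log2 fold change 0.04 ± 0.05). *Lamc1* gave 988 and 919, a log2 fold change of 0.01 ± 0.05. *Lama1*, the alpha chain of that trimer and a main laminin of Reichert's membrane, gave 182 and 147, a log2 fold change of -0.19 ± 0.08. *Lamb1* and *Lamc1* differed by less than the spot error and turn negative without scaling, while *Lama1* was lower under every scaling. *Lama5*, the alpha chain that joins the same beta and gamma chains in many epithelia, gave 2780 and 2988, a log2 fold change of 0.22 ± 0.04. *Lama1* was thus lower and *Lama5* higher in the Dullard-/- embryo, both by well under 1.5-fold.

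Among the remaining laminin chains, *Lama4* had the lowest fold change of all the basement membrane genes. *Lama4*, an alpha chain known from vessel walls and mesenchyme, gave a signal of 52.3 in the Dullard+/- and 24.5 in the Dullard-/- embryo. The Dullard-/- value was the lower by 1.98-fold, a log2 fold change of -0.98 ± 0.17. The gene is read from 1 probe. *Lamb3*, a beta chain of epithelial laminins, was measured in the Dullard+/- embryo alone, at 7.15 against 1.49, too dim on either side for a fold. *Lama3*, an alpha chain of epithelia, gave 67.9 and 63.5 on 1 probe (0.02 ± 0.11), and its second probe was not well above background in either embryo. With the normexp background model in place of the scanner's subtraction, which pulls dim genes to 0 by construction, *Lama4* was at -0.30, within 1.5-fold. *Lamb2*, the beta chain of muscle and kidney basement membranes, gave 28.0 and 26.2 (0.01 ± 0.20). *Lama2*, the alpha chain of muscle, gave 42.1 and 40.4 (0.05 ± 0.15) on 1 probe. Its other probe gave 10.6 in the Dullard+/- embryo and 1.67, not well above background, in the Dullard-/- embryo, so the probes of *Lama2* disagree.

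**Figure D2:**
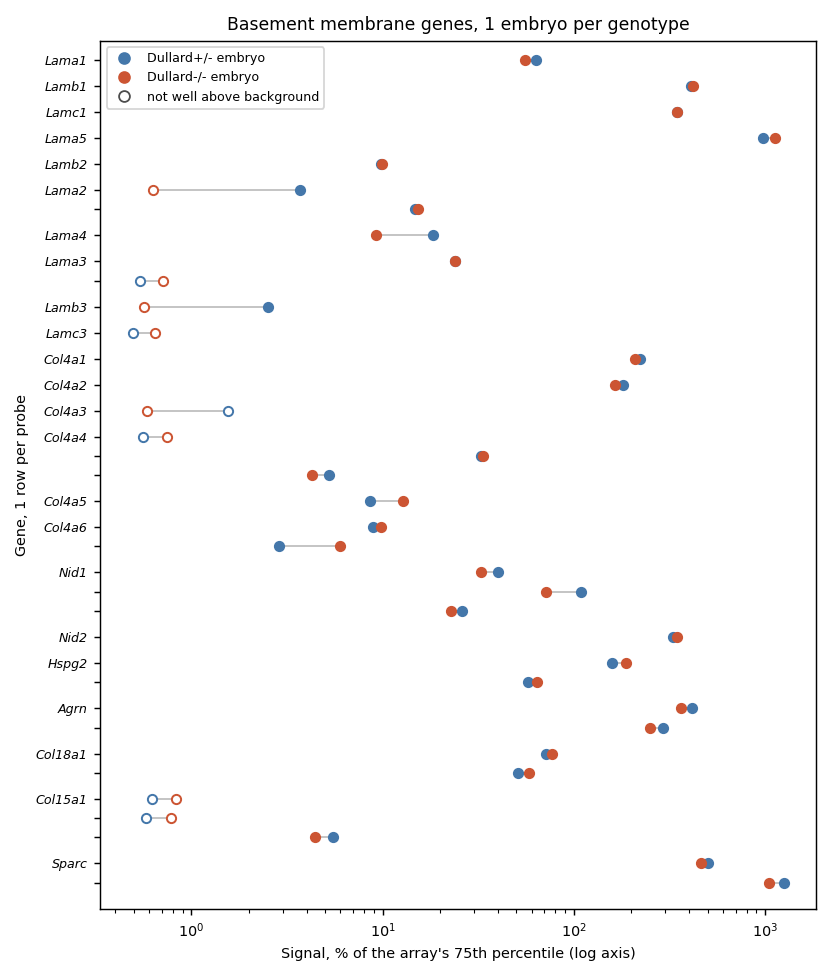
Signal of the reported basement membrane probes as a percentage of the 75th percentile of its array (log axis), with 1 point per embryo and 1 row per probe, so that a gene with several probes has several rows. Open points were not well above background. The points of *Lamb1*, *Lamc1* and *Nid2* lie almost on each other. Among probes with no open point, those of *Lama4*, *Col4a5*, 1 probe of *Col4a6* and 1 of *Nid1* lie farthest apart. Some probes with an open point, as of *Lamb3* and *Lama2*, lie farther apart still.

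Type IV collagen, the network-forming collagen of every basement membrane, is coded by 3 pairs of genes that lie head to head in the genome. The pair of the common isoform, *Col4a1* and *Col4a2*, was slightly lower in the Dullard-/- embryo, and the pair *Col4a5* and *Col4a6* was higher, on dim probes. *Col4a1* was printed in 10 replicate spots on each array, so its technical spread can be read directly. In the Dullard+/- embryo these gave 593 at the lowest, 629 at the median and 698 at the highest. In the Dullard-/- embryo they gave 516, 556 and 588. The 2 sets of spots did not overlap in raw signal, but they did overlap after scaling. Compared spot by spot, all 10 were lower after scaling, with log2 fold changes between -0.14 and -0.03 and a mean of -0.09 (SD 0.04). *Col4a2* gave 517 and 431, a log2 fold change of -0.15 ± 0.06. Both stayed below 0 under every alternative processing, and neither came near 1.5-fold.

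*Col4a5* gave 24.7 in the Dullard+/- and 33.6 in the Dullard-/- embryo (log2 fold change 0.56 ± 0.19). *Col4a6* had 2 probes, with signals of 25.4 and 25.8 (0.14 ± 0.20) and of 8.22 and 15.8 (1.06 ± 0.35), and the mean over them was 0.60 ± 0.20. The higher value of *Col4a6* thus rested on its dimmer probe, and with the brightest probe alone it was 0.14. *Col4a5* is read from 1 probe. With normexp, *Col4a5* was at 0.26 and *Col4a6* at 0.15. In the pair *Col4a3* and *Col4a4*, known from the kidney filter, *Col4a3* was not well above background in either embryo. *Col4a4* gave 93.2 and 88.4 (0.04 ± 0.09) on 1 probe and 14.9 and 11.4 (-0.28 ± 0.32) on another, a mean of -0.12 ± 0.17.

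In the RefSeq annotation (GRCm38.p6), *Col4a1* lies on chromosome 8 at 11198423 to 11312889 on the minus strand and *Col4a2* at 11312805 to 11449287 on the plus strand, so that their 5' ends overlap by 85 bases. *Col4a5* (chromosome X, 141475370 to 141689236, plus strand) and *Col4a6* (141165403 to 141474095, minus strand) are separated by 1274 bases. The promoter windows of these pairs, whose genes are read outward from neighbouring starts, are printed here from RefSeq to show how they lie. Whether the shared position bears on the levels was not tested. Each window, as RefSeq's table gives it, runs from 250 bases before to 50 bases after a transcript start, 5' to 3' on its own strand. In *Col4a1*, *Col4a5* and *Col4a6* that start is not the outer end of the gene model given above. In *Col4a1* (chr8:11312777-11313076, minus) and *Col4a2* (chr8:11312555-11312854, plus) the capitals mark the 78 bases that both windows hold, as each other's reverse complement. In *Col4a5* (chrX:141475169-141475468, plus) and *Col4a6* (chrX:141474027-141474326, minus) the capitals mark the GC box, the letters GGGCGG on either strand.
Col4a1: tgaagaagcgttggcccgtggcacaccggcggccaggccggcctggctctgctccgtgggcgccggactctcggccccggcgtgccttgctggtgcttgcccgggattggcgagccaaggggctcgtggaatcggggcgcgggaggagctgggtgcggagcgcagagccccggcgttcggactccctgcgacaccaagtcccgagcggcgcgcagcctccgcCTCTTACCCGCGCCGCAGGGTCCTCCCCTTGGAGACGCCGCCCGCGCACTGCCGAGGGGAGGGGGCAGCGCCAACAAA
Col4a2: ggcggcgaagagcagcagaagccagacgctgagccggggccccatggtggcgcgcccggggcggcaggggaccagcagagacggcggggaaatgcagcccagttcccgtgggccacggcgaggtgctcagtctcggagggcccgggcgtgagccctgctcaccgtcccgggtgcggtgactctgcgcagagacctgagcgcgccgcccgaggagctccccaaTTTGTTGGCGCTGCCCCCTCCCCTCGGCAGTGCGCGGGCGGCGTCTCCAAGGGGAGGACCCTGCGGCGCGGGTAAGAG
Col4a5: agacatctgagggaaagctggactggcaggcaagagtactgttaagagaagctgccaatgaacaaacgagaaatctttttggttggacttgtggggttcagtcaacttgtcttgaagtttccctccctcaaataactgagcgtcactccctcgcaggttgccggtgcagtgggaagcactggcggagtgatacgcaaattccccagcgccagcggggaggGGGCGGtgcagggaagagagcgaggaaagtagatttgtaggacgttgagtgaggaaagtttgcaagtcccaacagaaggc
Col4a6: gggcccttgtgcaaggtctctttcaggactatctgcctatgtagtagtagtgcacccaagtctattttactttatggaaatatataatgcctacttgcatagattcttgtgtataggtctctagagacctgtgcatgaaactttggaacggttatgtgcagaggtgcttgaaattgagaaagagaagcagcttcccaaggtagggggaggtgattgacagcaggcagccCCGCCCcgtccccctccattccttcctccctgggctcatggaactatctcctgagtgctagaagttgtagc
The GC box occurred once in the *Col4a1* window, 3 times in that of *Col4a2*, of which 1 lies in the shared stretch, and once in each of the others. Bases G and C made up 74% of the *Col4a1* window, 73.7% of *Col4a2*, 52.7% of *Col4a5* and 48.3% of *Col4a6*, where the median over 32851 promoter windows was 52.7%. None of the 4 windows held TATAAA on either strand, and all but *Col4a6* held CCAAT. Over 69 windows of 62 of the 85 genes, GGGCGG was found in 58.0%, CCAAT in 27.5% and TATAAA in 7.25%, against 35.7%, 37.4% and 13.6% of all windows. The median GC content of these 69 windows was 59.3%. A match is a run of letters and not a known binding site.

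The linkers of the basement membrane differed among themselves. *Nid1*, which bridges laminin and type IV collagen, was lower in the Dullard-/- embryo on all 3 of its probes. These gave 114 and 86.9 (-0.28 ± 0.09), 312 and 189 (-0.61 ± 0.07) and 74.7 and 60.3 (-0.19 ± 0.11), a mean of -0.36 ± 0.05. The other nidogen, *Nid2*, gave 939 and 917 (0.08 ± 0.05), a value that turns negative without scaling. *Hspg2*, which codes for perlecan, was slightly higher, with 452 and 496 (0.25 ± 0.06) on 1 probe and 164 and 170 (0.17 ± 0.08) on another. *Agrn*, which codes for agrin, was slightly lower, with 1178 and 957 (-0.19 ± 0.05) and 834 and 662 (-0.22 ± 0.05). The 2 heparan sulphate proteoglycans therefore stood on opposite sides of 0, each with both of its probes, and as gene means under every scaling. *Col18a1*, the collagen whose fragment is endostatin, gave 204 and 203 (0.11 ± 0.07) and 145 and 154 (0.20 ± 0.08). *Col15a1*, its close relative, was measured by 1 of 3 probes, at 15.7 and 11.7 (-0.31 ± 0.29). *Sparc*, a collagen-binding matrix protein made in quantity by the parietal endoderm, gave 1434 and 1225 (-0.11 ± 0.05) and 3582 and 2770 (-0.26 ± 0.04). Of the genes known as products of the parietal endoderm, *Sparc*, *Col4a1*, *Col4a2*, *Lama1* and *Nid1* were each lower, as gene means by under 1.5-fold. In the same tissue's products *Lamb1*, *Lamc1*, *Nid2* and *Hspg2* the values were 0.04, 0.01, 0.08 and 0.21. The other markers listed for that tissue had a median of 0.18, from -0.52 for *Stra6* to 0.72 for *Snai1*. That list is not particular to the tissue, since *Cubn* is also on the visceral endoderm list. Whether the embryos differed in the amount of parietal endoderm was not tested. Of the 16 measured, 3 were higher and 0 lower by 1.5-fold or more, beside 3.92% and 3.37% of all genes. Over the 21 basement membrane genes measured in both embryos the median was 0.01, from -0.98 to 0.60, with 11 above 0, and it lay between -0.10 and 0.05 under the other scalings.

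**Figure D3:**
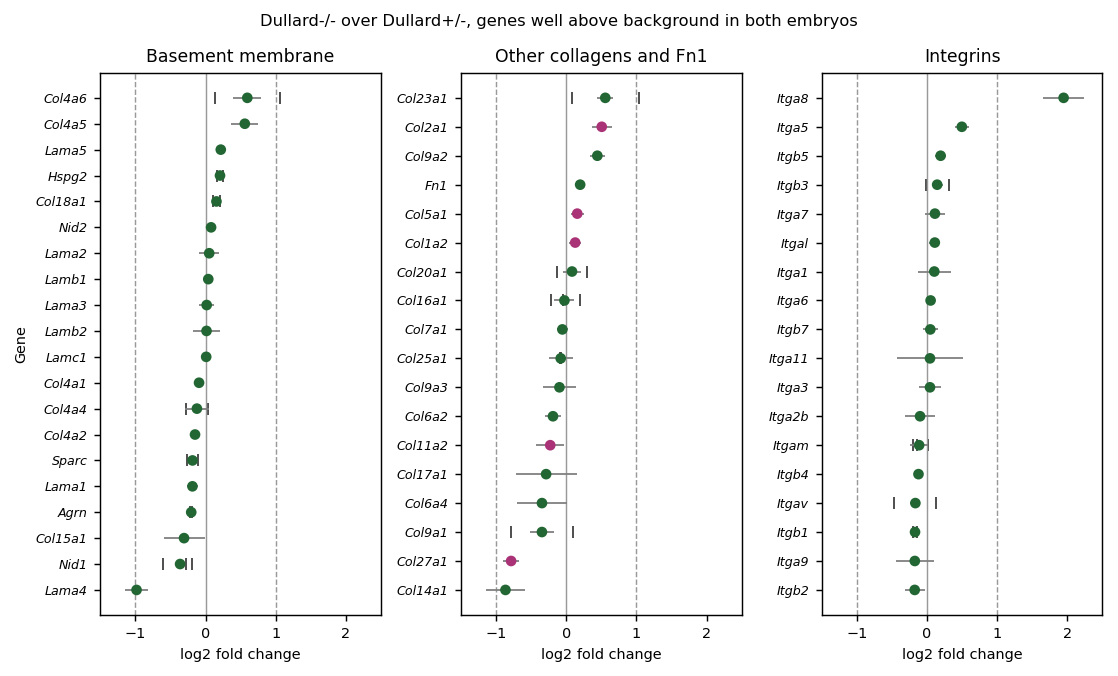
Log2 fold change of the genes reported here that were measured in both embryos, in 3 panels. Points are gene means, bars the error between replicate spots, vertical ticks the single probes of genes with several, pink points the fibrillar collagens and dashed lines a 2-fold change. *Itga8* stands at 1.95, and *Lama4*, at -0.98, lies closest to a 2-fold decrease.

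Fibronectin, an interstitial protein on which mesoderm cells migrate, had a signal of 10466 in the Dullard+/- and 11103 in the Dullard-/- embryo. *Fn1* was thus slightly higher, a log2 fold change of 0.20 ± 0.04. Of 11 fibrillar collagens, 5 were measured in both embryos, each by 1 probe. The type I chain *Col1a2* gave 136 and 137 (0.13 ± 0.08), and *Col5a1*, which regulates the width of type I fibrils, gave 96.3 and 99.3 (0.16 ± 0.09). *Col2a1*, the collagen of cartilage and notochord, was higher, with 40.1 and 52.6 (0.51 ± 0.14). *Col27a1*, a fibrillar collagen of growing cartilage, was lower by 1.72-fold, with 86.2 and 46.2 (-0.79 ± 0.11). The normexp value of *Col27a1* was -0.39, within 1.5-fold. *Col11a2* gave 30.6 and 24.1 (-0.23 ± 0.20). *Col1a1* and *Col3a1*, the other main collagens of connective tissue, were at the limit of measurement, well above background in the Dullard+/- embryo alone. *Col1a1* gave 7.59 and 7.60, and *Col3a1* 6.89 and 5.72, so no fold is given.

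Among the other collagens, 12 of 23 were measured in both embryos, 3 above 0 and 9 below, with a median of -0.09 that was 0.05 with normexp. *Col14a1*, a collagen that sits on the surface of fibrils, was lower by 1.82-fold, with 20.9 in the Dullard+/- and 10.6 in the Dullard-/- embryo (-0.87 ± 0.28). Its other probe was not well above background in either embryo, and with normexp the value was -0.05. *Col22a1*, a collagen of tissue junctions, was measured in the Dullard+/- embryo alone, at 17.0 against 7.96, a bound of 1.97-fold lower. A bound sets the Dullard+/- level against the higher of the Dullard-/- signal and the lowest signal the software called well above background. For *Col22a1* that was the Dullard-/- signal, so 1.97-fold is the observed ratio and not a lower limit. Its spot error was 0.35 on the log2 scale. The 3 chains of the cartilage collagen type IX did not move together. *Col9a2* was higher, with 55.2 and 69.4 (0.44 ± 0.11), and *Col9a3* was at -0.10 ± 0.24. *Col9a1* gave 37.4 and 20.0 (-0.79 ± 0.20) on 1 probe and 14.5 and 14.3 (0.10 ± 0.28) on the other. The transmembrane collagen *Col23a1* also had probes that disagreed, with 16.7 and 31.7 (1.03 ± 0.21) on 1 and 67.3 and 65.6 (0.08 ± 0.11) on another, a mean of 0.56 ± 0.12. *Col17a1*, the transmembrane collagen of hemidesmosomes, gave 10.3 and 7.79 (-0.29 ± 0.43), a difference smaller than its error. *Col7a1*, which forms anchoring fibrils under epithelia, gave 211 and 188 (-0.06 ± 0.07). Of type VI, the beaded-filament collagen, *Col6a2* was at -0.19 ± 0.12 and *Col6a4* at -0.35 ± 0.35. *Col16a1* (-0.03 ± 0.14), *Col20a1* (0.08 ± 0.13) and *Col25a1* (-0.08 ± 0.17) lay within their errors of 0.

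The integrin with the largest fold change was *Itga8*. This alpha chain pairs with the beta1 chain and binds ligands that carry the RGD motif, among them nephronectin and fibronectin. *Itga8* had a signal of 7.31 in the Dullard+/- and 26.1 in the Dullard-/- embryo. The Dullard-/- level was the higher by 3.86-fold, a log2 fold change of 1.95 ± 0.29, and it lay between 1.83 and 2.07 over the scalings. The Dullard+/- signal was close to 6.20, the lowest that the software called well above background on that array, and with normexp the value was 0.54, within 1.5-fold. The gene is read from 1 probe. The gene of its ligand nephronectin, *Npnt*, was lower, with mean signals over 2 probes of 29.1 and 14.1 and a mean log2 fold change of -0.69 ± 0.20. The mean signals fell by more than that mean fold after scaling, so the 2 probes differed in fold.

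The fibronectin receptor chain *Itga5*, whose partner is also beta1, gave 66.8 in the Dullard+/- and 87.1 in the Dullard-/- embryo (log2 fold change 0.50 ± 0.10). *Itgav*, the alpha chain of the vitronectin receptors, had 2 probes on opposite sides of 0, with 111 and 113 (0.14 ± 0.09) and 79.5 and 53.2 (-0.47 ± 0.11). *Itga2b*, the platelet fibrinogen receptor chain, was at -0.10 ± 0.21. The chains that bind RGD ligands thus differed among themselves. *Itgb1*, the beta chain shared by most matrix receptors, was slightly lower on both probes, with 680 and 569 (-0.14) and 489 and 394 (-0.20), a mean of -0.17 ± 0.04. Of the beta partners of alpha v, *Itgb5* was at 0.19 ± 0.08 and *Itgb3* at 0.14 ± 0.08. *Itgb8*, which activates latent TGF-beta, was measured in the Dullard+/- embryo alone, at 8.36 against 2.39, a bound of at least 1.06-fold lower.

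The laminin receptors differed little. *Itga6*, the alpha chain of the main laminin receptor of early embryos, gave 1082 and 1037 (0.05 ± 0.05), and *Itga3* was at 0.04 ± 0.15 and *Itga7* at 0.11 ± 0.15. *Itgb4*, the partner of alpha6 in hemidesmosomes, gave 314 and 267 (-0.12 ± 0.06). The values of *Itga6* and *Itga3* lay within their errors and turn negative without scaling. Of the collagen receptors, *Itga1* was at 0.10 ± 0.23, *Itga11* at 0.04 ± 0.46, and *Itga2* was not well above background in either embryo. *Itga4*, the receptor chain for VCAM1 and a fibronectin variant, was measured in the Dullard+/- embryo alone, at 10.2 against 5.26, at least 1.29-fold lower, and its relative *Itga9* was at -0.17 ± 0.27.

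Of the leukocyte integrins, *Itgal* was at 0.11 ± 0.08, *Itgb2* at -0.18 ± 0.14 and *Itgb7* at 0.05 ± 0.11, while *Itgax*, *Itgad* and *Itgb2l* were not well above background in either embryo. *Itgam*, known from macrophages and neutrophils, had 3 probes with signals of 12.7 and 10.6, of 50.5 and 40.6, and of 74416 and 69416. The fold changes of these probes were -0.15, -0.20 and 0.01, a mean of -0.11 ± 0.13. Whether these probes read the same RNA was not tested. Through the bright one *Itgam* counts among the genes with a signal of 200 or more. Over the 18 integrins measured in both embryos the median was 0.04, with 11 above 0 and 7 below, and it was -0.07 without scaling. *Itgb6* and *Itgbl1* were not well above background in either.

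**Figure D4:**
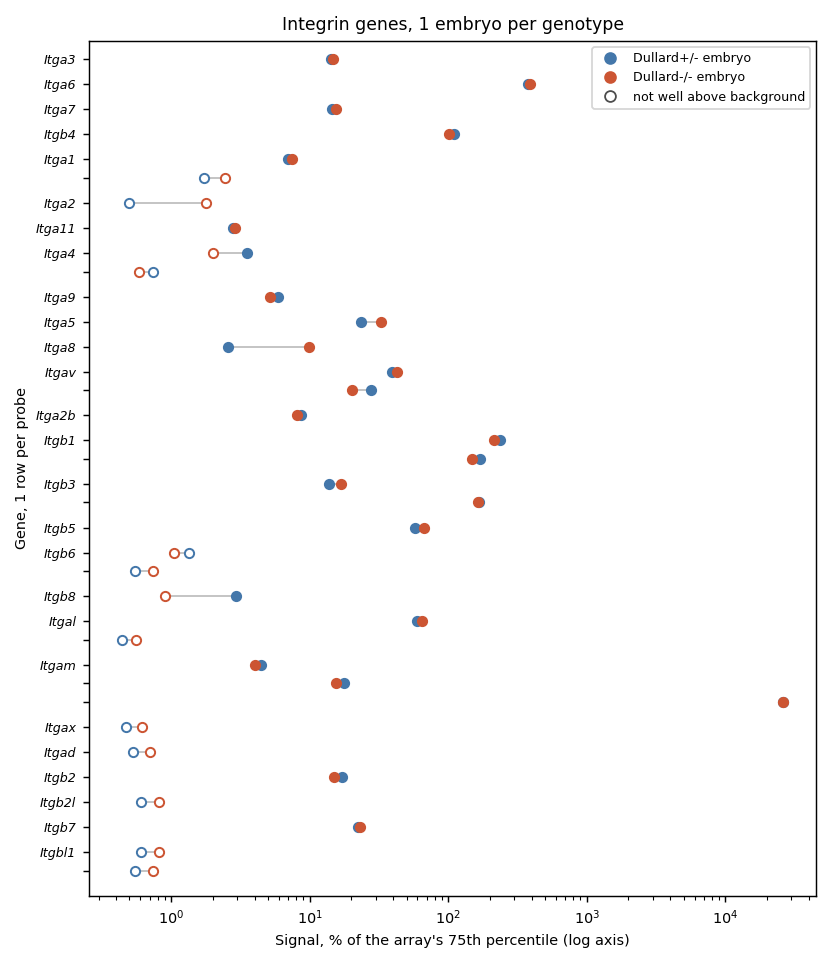
Signal of each integrin probe as a percentage of the 75th percentile of its array (log axis), with 1 point per embryo and 1 row per probe. Open points were not well above background. The points of *Itga8* lie farthest apart among genes measured in both embryos, and the 3 probes of *Itgam* span most of the axis.

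Of the 57 genes, 16 had several measured probes. In 9 of these the probes lay on the same side of 0 and in 7 on opposite sides, and the median spread between them was 0.32. In 4 the spread was over 0.5 on the log2 scale. Where a gene has 1 probe, this disagreement cannot be seen. Of the 57, 24 differed from 0 by more than double the spot error, and 42 kept their sign under every scaling. Neither count has a share over all genes beside it, so neither is read as particular to these genes. The spot error also leaves out the spread between embryos.

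Genes that make, cut or bind this matrix were read as lists, chosen by known role. Of 30 genes that modify or crosslink collagen, 25 were measured in both embryos, with a median of 0.01, 2 higher and 1 lower by 1.5-fold or more, where 3.92% of all genes were higher and 3.37% lower. *Pcolce*, which enhances the cleavage of procollagen, was highest, with 31.5 and 57.8 (0.99), and *P3h4*, a protein of the collagen-modifying complex, was next (0.61). The procollagen protease *Adamts3* (-0.74) and the prolyl hydroxylase *P3h1* (-0.32) were lowest. Of 24 matrix proteases and inhibitors, 18 were measured, with a median of 0.13, 2 higher and 0 lower. Those 2 were *Mmp14*, the membrane-bound activator of gelatinase A, with 27.0 and 40.6 (0.70), and the versican-cutting *Adamts9* (0.65). *Mmp15* (-0.29) and *Adamts5* (-0.18) were lowest.

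Of 29 other matrix genes, 20 were measured in both embryos, with a median of 0.08, 5 higher and 3 lower by 1.5-fold or more, beside the same 3.92% and 3.37% of all genes. The highest were *Vcan*, which codes for the hyaluronan-binding proteoglycan versican, with mean signals over 3 probes of 168 and 263 (0.84), and the hyaluronan synthase *Has2*, with 72.7 and 120 (0.83). *Egfl6* (0.83 ± 0.26), *Frem1* (0.76 ± 0.36) and *Tinagl1* (0.60 ± 0.07) were the other 3. The lowest was *Efemp1*, a fibulin, with 26.7 and 11.9 (-1.06 ± 0.24), followed by *Npnt* and *Emilin1* (-0.60 ± 0.26). *Egfl6*, *Frem1*, *Efemp1*, *Npnt* and *Emilin1* had signals under 50, where 16.9% of all genes were past 1.5-fold. *Smoc2* was measured in the Dullard+/- embryo alone and *Fbn1* in the Dullard-/- embryo alone. Of 22 genes of the machinery that links integrins to actin, 21 were measured, with a median of 0.09 and 1 higher, the kindlin *Fermt1* (0.65), followed by *Rsu1* (0.38). *Pxn*, which codes for paxillin (-0.51), and the parvin *Parvb* (-0.24) were lowest. The medians of these lists stand beside 0.01 over all genes. The medians of all but the protease list turn negative under the shift that goes with no scaling.

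**Figure D5:**
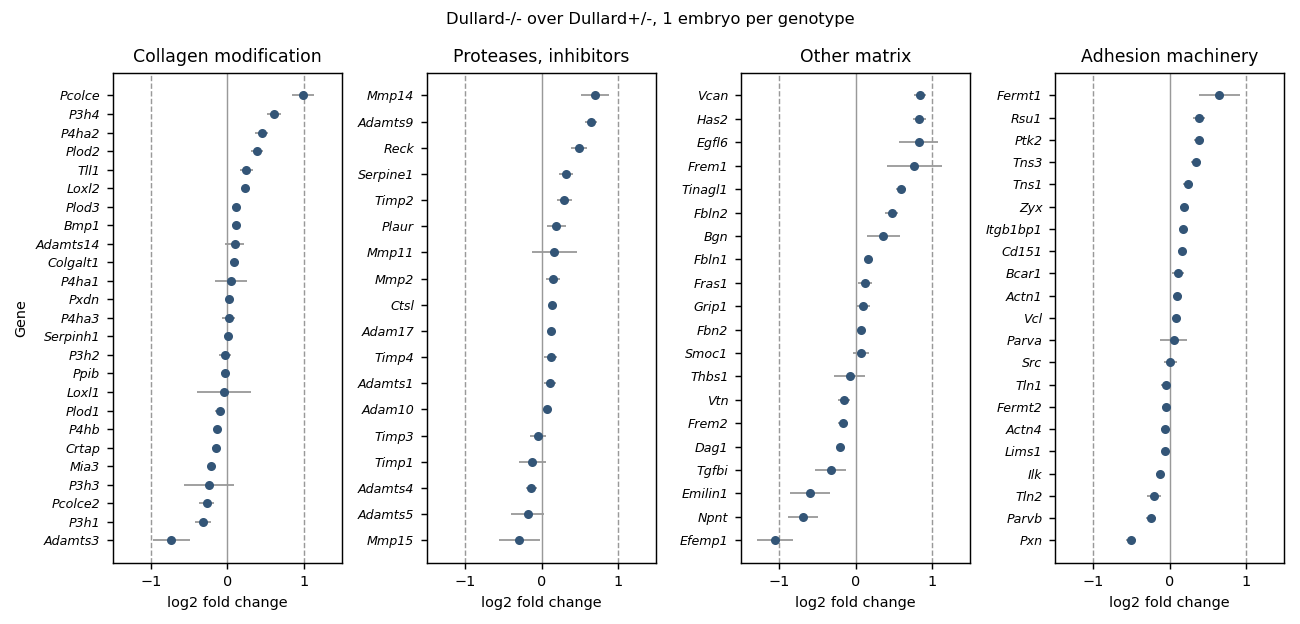
Log2 fold change of the listed genes measured in both embryos, in 4 panels by role, with bars for the error between replicate spots and dashed lines at a 2-fold change. *Efemp1*, at -1.06, is the only point past a dashed line, and *Pcolce*, at 0.99, lies closest to the other.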

How the data were processed

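RNA of 2 whole embryos was measured on 1-colour arrays that share a slide and a scan, which leaves no slide effect to estimate. The labels give 0.1 µg of RNA and an Agilent low-input kit, and the study's methods name another amount and kit. The authors deposited spot intensity values from Agilent Feature Extraction 10.10, with the background taken off by that software, and a second table of intensity values, which is linear and equals the same signal times a constant per array (4.91 and 5.20). Controls and 206 spots with an outlier mark were left out. Probes were named through their accession in RefSeq's mouse table, which named 30235 of 43020 spots.

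The log2 signal minus the array's log2 75th percentile was averaged over spots, then over the probes of a gene well above background in both embryos. Errors pooled the spot SD of the 40 replicated probes nearest in signal. Computations used Python 3.11.15, numpy 2.4.6, pandas 2.3.3, statsmodels 0.14.6, R 4.3.3 and limma 3.58.1 (normexp, offset 50, on median signals), and were tested on simulated data. No test between genotypes was run, with 1 embryo in each. Named are the genes past 1.5-fold, those with a bound past it, the extremes and brightest of each group and the main basement membrane genes, and of each list of matrix partners the 2 highest and 2 lowest; the remaining genes with values were added to describe each group. An item counted in the totals is not reported here. The genes, lists and alternatives were chosen with earlier results of these data known. The 9 alternatives were quantile and loess (span 0.3) normalization, median scaling, no scaling, normexp, all probes whatever their signal, the brightest probe of each gene, linear averaging and the authors' second table.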

Additional observations from a re-analysis of the deposited data

How the results depend on the processing

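No paired analysis was possible because each genotype is 1 embryo, and for the same reason no replicate could be left out. The median log2 fold change over all matrix and integrin genes was 0.01. It was 0.047 with median scaling, -0.10 without scaling, 0.038 with normexp, 0.047 without the filter on dim probes and -0.021 in the processed table. The basement membrane median, 0.01, was -0.036 with quantile normalization, 0.047 with median scaling and -0.10 without scaling. Without scaling the fibrillar median was 0.015 in place of 0.13, that of the other collagens -0.20 in place of -0.09 and that of the integrins -0.068 in place of 0.04, and with normexp the other collagens were at 0.046. Over all genes, the median was -0.10 without scaling. Percentages after the counts below are the shares of all genes in the same setting, and without the filter all 85 genes were counted. The 1 gene higher by 2-fold became 0 with normexp (0.068%) and 3 without the filter (2.39%). The 0 genes lower by 2-fold became 2 without scaling (1.12%), 7 without the filter (3.84%) and 1 in the processed table (0.826%). The 2 genes higher by 1.5-fold became 4 with quantile (4.59%), loess (4.71%), median scaling (4.56%) or no filter (5.99%). They became 1 without scaling (2.63%), with the brightest probe (4.05%) or in the processed table (3.47%). With linear averaging they became 3 (4.05%) and with normexp 0 (0.636%). The 4 genes lower by 1.5-fold became 0 with normexp (0.223%), 6 with the brightest probe (3.66%) and 12 without the filter (8.56%). The cause was not tested, except that normexp with an offset shrinks dim genes and that dropping the filter adds genes by construction.

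Of all genes past 2-fold, 53.9% were higher, against 35.3% without scaling, 66.7% with normexp (10 higher, 5 lower) and 38.4% without the filter (484 higher, 778 lower). Of 261 values of 29 named genes under the 9 alternatives, 211 moved by less than their error, 50 moved more and 0 of the genes past 1.5-fold changed side. Over all 57 genes, 42 kept their sign under the scalings and 31 under all 9 alternatives, counts with no share over all genes beside them. Precision was lowest under a signal of 50, where the median error was 0.20.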
